A study of Rattus norvegicus with 6 samples.

Results

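Gemin4 and the other proteins of the survival motor neuron (SMN) complex were examined in liver RNA from animals on a high-fat diet, with and without the herbal granule HTG. The 9 genes were found by their symbols in the deposited expression table, 1 row each, among 32930 rows: Gemin4, Gemin2, Gemin5, Gemin6, Gemin7, Gemin8, Smn1, Ddx20 and Strap. Gemin4 was chosen by its counts in these same libraries, which differed between the groups, so its values are given as a description without a test. Its 8 partners were chosen as members of the same complex, and the question was whether they shared the loss of Gemin4.

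Each group held 3 libraries, each from the liver of an animal. The HFD group received a high-fat diet and the vehicle, 0.5% CMC-Na (sodium carboxymethyl cellulose), and the HTG group received the same diet and HTG (Huazhuo Tiaozhi granule, an extract of Chinese herbs), with an intervention of 12 weeks according to the labels. In the study's animal methods only the diet ran for that whole time, and dosing began some weeks into it. Those methods give the drugs in 0.5% CMC-Na as well, while the labels name it for the HFD group only. No genetic change is described, both groups ate the high-fat diet, and no group on a normal diet was part of this comparison. Values of the HTG group can thus be set only against animals given the vehicle on the high-fat diet. The treatment entry of the labels spells the agent HCG, while the sample titles and the study write HTG. The labels name rats and a rat genome build (mRatBN7.2), and the study's animal methods name male Wistar rats. Its RNA sequencing methods name C57BL/6 J mice instead, and the deposited rows carry mouse Ensembl identifiers, so the species sequenced cannot be told from these sources. The genes are named here as in those rows, and the age of the animals was not found in the labels or methods. The check of tissue found the 7 hepatocyte markers that were in the table at a summed 71198 to 97314 CPM in every library, where CPM are counts relative to library size after TMM scaling between libraries.

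The SMN complex loads a ring of Sm proteins onto the small nuclear RNAs (snRNAs), which makes the core of the particles that carry out splicing. SMN itself binds Gemin2, which holds the Sm proteins, and Gemin5 recognises the snRNA. Gemin3, the DEAD-box helicase encoded by Ddx20, binds Gemin4, and both proteins have also been found with Argonaute proteins and microRNAs. Gemin6, Gemin7 and Gemin8 form a further arm of the complex, to which Unrip, the product of Strap, is attached. The authors' table annotated 10 rows with the GO term SMN complex, and these were all 9 genes studied here and Fmr1.

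Gemin4 mRNA was present in every HFD library and nearly absent from every HTG library. Gemin4 (ENSMUSG00000049396) had estimated counts of 464, 728 and 675 in HFD libraries 1, 2 and 3. In HTG libraries 1, 2 and 3 it had 0, 7 and 5. Every HTG library was thus at or below the limit that an empty gene allows, which was set at 3 sequenced fragments or 12 counts per library, reading 1 fragment as 4 counts. Over the table, values of 4, 8 and 12 were each more frequent than the values on either side, although 1 and 2 were also frequent and Gemin4 itself had 7 and 5, so this reading is approximate. In CPM the level was 6.81, 10.9 and 9.40 in the same order of HFD libraries, or 9.04 ± 2.08 (SD, n = 3). The highest limit among the HTG libraries was 0.256 CPM, in HTG library 3. The HFD mean was 35.3-fold above it, and the lowest HFD library, at 6.81 CPM, was 26.6-fold above it. At the mean HFD level, 704, 884 and 424 counts would have been found in HTG libraries 1, 2 and 3. These limits cover counting error only.

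Among all 32930 rows, Gemin4 was the only gene with at least 5 CPM in every HFD library and no more than 12 counts in every HTG library. There were 0 genes with the opposite pattern. Lowering the level to 2 CPM left 1 and 0 genes, and lowering it to 1 CPM left 1 gene in each direction. These are counts without a test. Gemin4 was chosen on this same contrast, so finding it with this pattern is a description only. The lowest log2 fold change over all genes tested, -11.9 in edgeR, belonged to another gene.

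The deposited FPKM values, which divide by transcript length and by library size and therefore allow genes to be compared with each other, placed Gemin4 among its partners in the HFD group. Gemin4 had 1.83, 2.64 and 2.50 FPKM in HFD libraries 1, 2 and 3, and 0.00, 0.02 and 0.02 FPKM in HTG libraries 1, 2 and 3. In the HFD group the order of mean FPKM was Strap, Gemin7, Gemin2, Smn1, Gemin6, Ddx20, Gemin4, Gemin5 and Gemin8. The libraries of Smn1 (2.64 FPKM), Gemin6 (2.60 FPKM), Ddx20 (2.45 FPKM) and Gemin4 (2.32 FPKM) overlapped, so these places were not separated by the spread between libraries. Gemin5 (1.81 FPKM) overlapped with Gemin4 and lay below Smn1, Gemin6 and Ddx20 in every library. Strap, at 25.6 FPKM, Gemin7, at 8.25 FPKM, and Gemin2, at 5.68 FPKM, each lay above the next gene in every library, and Gemin8 was lowest at 0.477 FPKM. In the HTG group Gemin4 was last, and the other 8 genes ran from Strap (15.8 FPKM) to Gemin8 (0.460 FPKM). As a share of the geometric mean FPKM of its 8 partners in the same library, Gemin4 stood at 53.5%, 72.8% and 81.5% in HFD libraries 1, 2 and 3 and at 0%, 0.677% and 0.705% in HTG libraries 1, 2 and 3.

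**Figure D1:**
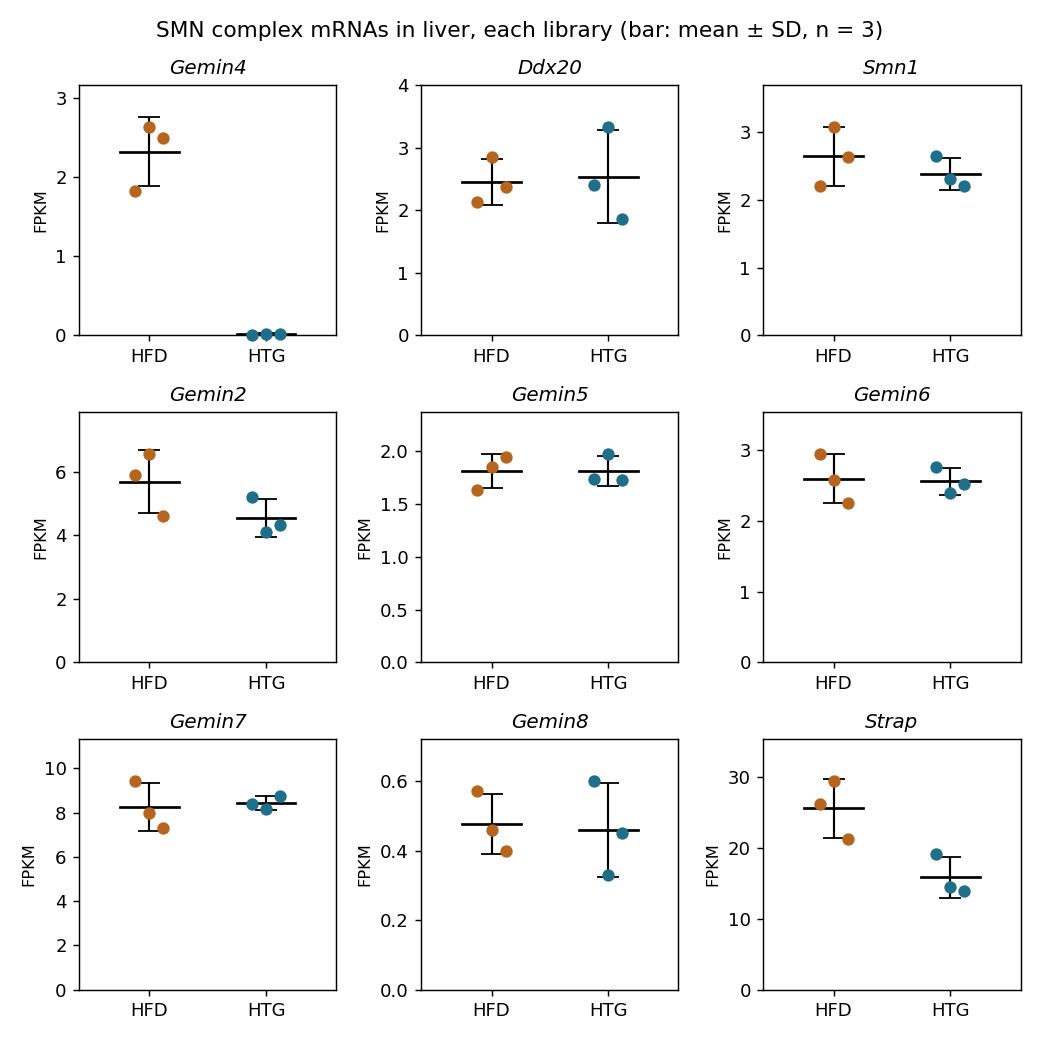
FPKM of the 9 SMN complex genes in each library (points), with the mean and SD of each group (bars, n = 3), each panel on its own axis from 0. Gemin4 lies between 1.83 and 2.64 in HFD libraries and at 0.02 or below in HTG libraries, and Strap is the only partner whose groups do not overlap.

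Gemin4 lies within another gene. In the table, whose mouse genome build is not named, its row runs from 76101397 to 76108490 on chromosome 11, minus strand, a span of 7094 bp with 2 transcripts. The row of Glod4, a glyoxalase domain gene, runs from 76011813 to 76134501 on the same strand and contains it whole. Tlcd3a overlaps 4257 bp of it and Dbil5 overlaps 57 bp, both on the plus strand. Exon positions were not used here, and no source says if reads were counted by strand, so reads in these overlaps could have been assigned to either gene. The other members had no overlapping row, apart from Gemin5, which shared 2445 bp with Gm12246 on the other strand, a row with 15 counts over all 6 libraries.

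Glod4 was no higher in the libraries where Gemin4 was near 0. Glod4 had 29.4, 26.9 and 25.2 CPM in HFD libraries 1, 2 and 3. In HTG libraries 1, 2 and 3 it had 25.7, 24.9 and 26.4 CPM. The groups overlapped, and the log2 fold change was -0.08 with a 95% interval from -0.42 to 0.25 (adjusted p = 0.765 by the quasi-likelihood test of edgeR, adjusted after Benjamini and Hochberg over all genes tested). The sum of Gemin4 and Glod4 was 36.2 ± 1.60 CPM in the HFD group and 25.7 ± 0.756 in the HTG group (SD, n = 3 per group), with every HTG library below every HFD library. Gemin4 made up 18.8%, 28.9% and 27.2% of that sum in the HFD libraries, and at most 0.403% in the HTG libraries.

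**Figure D2:**
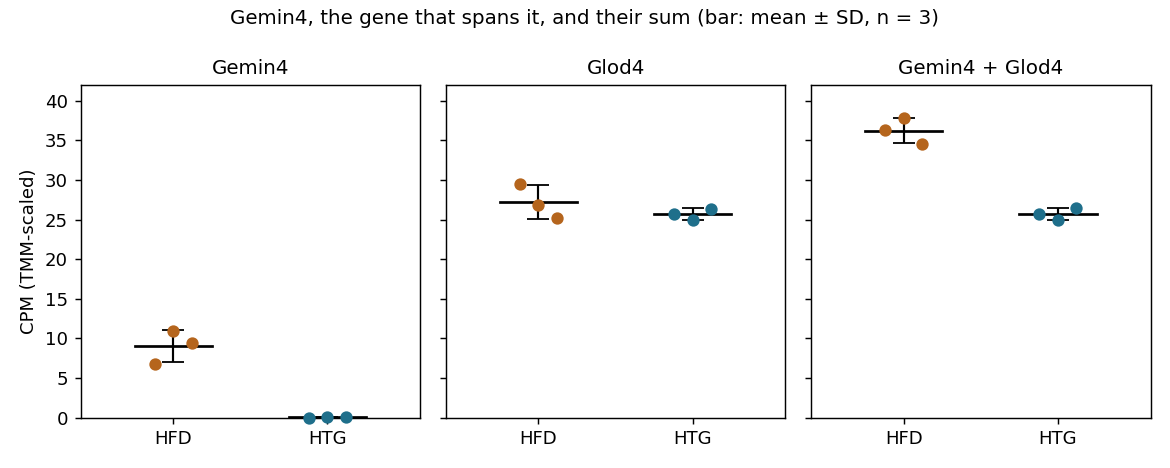
TMM-scaled CPM of Gemin4, of Glod4, whose span contains it, and of their sum in each library (points), with the mean and SD (bars, n = 3 per group). Glod4 averages 27.2 CPM in the HFD and 25.7 CPM in the HTG group and its points overlap, while the sum averages 36.2 and 25.7 CPM and its points do not.

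The overlapping genes on the other strand still had counts in every HTG library. Tlcd3a had 179, 146 and 180 counts in HFD libraries 1, 2 and 3 and 534, 210 and 58 counts in HTG libraries 1, 2 and 3, so that the groups overlapped (adjusted p = 0.629, edgeR). Dbil5 had 6, 38 and 16 counts in HTG libraries 1, 2 and 3, against 0, 0 and 9 in the HFD group, too few to be tested. Of the 6 rows that overlapped Gemin4 or lay within 100 kb of it, 5 were tested and 0 had an adjusted p under 0.05 in edgeR. Only 0.0108% of all genes tested passed that threshold in either direction. At an unadjusted p under 0.05, 1 was higher, namely Mrm3, a methyltransferase of mitochondrial ribosomal RNA, with 6.56 ± 0.183 CPM in the HFD group and 9.47 ± 1.63 in the HTG group (SD, n = 3 per group; adjusted p = 0.164, edgeR). Among all genes tested 12.3% were higher at that threshold. Vps53, a subunit of a vesicle tethering complex, had 28.2 ± 2.86 and 22.4 ± 0.389 CPM in the HFD and HTG groups (SD, n = 3 per group; adjusted p = 0.211, edgeR). Nxn, which encodes nucleoredoxin, was low in both groups, at 0.872 and 1.19 CPM (adjusted p = 0.577, edgeR).

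**Figure D3:**
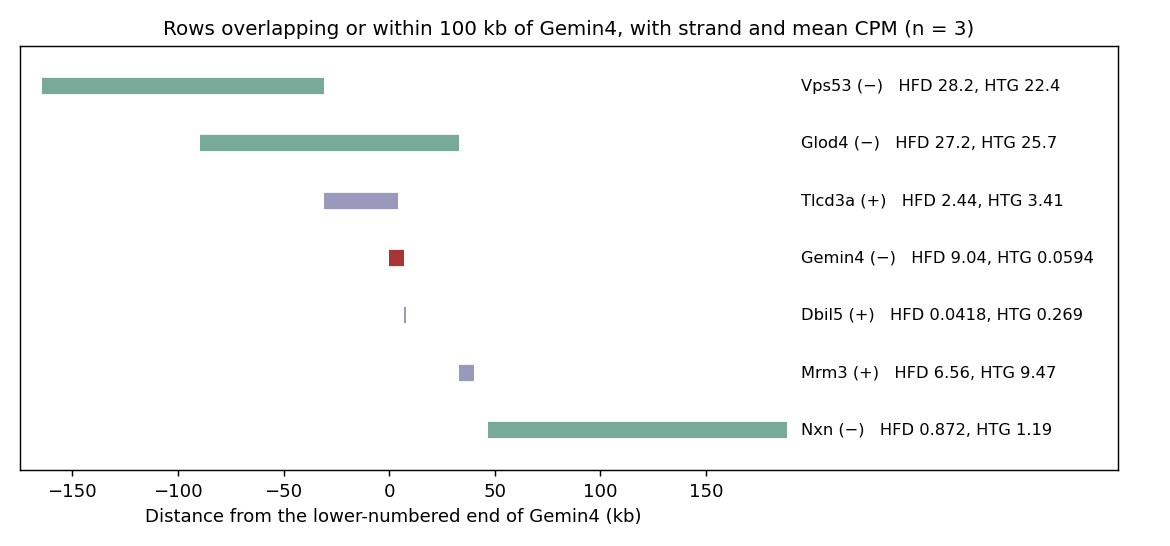
Spans of the rows that overlap Gemin4 or lie within 100 kb of it, drawn to scale as distance in kb from the lower-numbered end of Gemin4 (red), with green for the same strand and violet for the other strand. Mean CPM of the HFD and HTG groups (n = 3) stands beside each row, and Gemin4, at 9.04 and 0.0594, is the only one near 0 in the HTG group alone.

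The 8 partners did not share the loss. All 8 passed the filter on low counts, and 0 had an adjusted p under 0.05 in edgeR, in DESeq2 or in limma on FPKM (limma without Gemin8, which was under its FPKM minimum). Over all genes tested, edgeR placed 0.00542% lower and 0.00542% higher, or 0.0108% in all, at that threshold. DESeq2 placed 1160 of 29720 genes lower and 929 higher. Of 10930 genes, limma placed 552 lower and 326 higher on log2(FPKM + 0.1), and 555 and 329 on log2(FPKM + 1). At an unadjusted p under 0.05, 1 of the 8 was lower (Strap) and 0 were higher in edgeR and likewise in DESeq2. In edgeR, 12.4% and 12.3% of the 18455 genes tested were lower and higher at that threshold. In DESeq2, 2622 and 2320 of 29720 genes were lower and higher, or 16.6% in all. Fitted values were lower in the HTG group for 4 partners and higher for the other 4. Their median log2 fold change was 0.01, where the median over all genes tested was 0.03. With 3 libraries against 3, an exact two-sided permutation test of a single gene cannot go below p = 0.1.

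Ddx20, the helicase that binds Gemin4, had 8.81, 13.0 and 9.90 CPM in HFD libraries 1, 2 and 3. In HTG libraries 1, 2 and 3 it had 10.7, 13.7 and 8.92 CPM. The HTG libraries reached both below and above the middle HFD library, and the HTG level was 1.05 times the HFD level, with a 95% interval from 0.723 to 1.53 (adjusted p = 0.882, edgeR). Its counts in HTG library 2, 1341, were the highest of the 6 libraries, where Gemin4 had 7.

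Smn1, which encodes SMN itself, had 5.74, 8.89 and 6.91 CPM in HFD libraries 1, 2 and 3, and 7.38, 5.95 and 6.62 CPM in HTG libraries 1, 2 and 3. All 3 HTG values lay within the HFD range. The HTG level was 0.926 times the HFD level, with a 95% interval from 0.638 to 1.34 (adjusted p = 0.806, edgeR).

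Gemin2, which clasps the Sm proteins, had 14.2, 17.5 and 11.2 CPM in HFD libraries 1, 2 and 3, and 13.5, 9.79 and 12.0 CPM in HTG libraries 1, 2 and 3. HFD library 2 was the highest and HTG library 2 the lowest, and the remaining values intermingled. The ratio was 0.822, with a 95% interval from 0.579 to 1.17 (adjusted p = 0.460, edgeR). Gemin5, which recognises the snRNA, had the narrowest interval of the 8 partners, with 12.4 ± 1.47 CPM in the HFD group and 12.8 ± 0.444 in the HTG group (SD, n = 3 per group), a ratio of 1.03 with a 95% interval from 0.784 to 1.35.

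Gemin6, Gemin7 and Gemin8, the arm that contacts the Sm proteins and SMN, lay close to a ratio of 1. Gemin6 had 3.85 ± 0.517 CPM in the HFD group and 3.94 ± 0.474 in the HTG group (SD, n = 3 per group), a ratio of 1.02 with a 95% interval from 0.691 to 1.51. Gemin7 had 15.3 ± 1.87 and 16.1 ± 1.78 CPM (SD, n = 3 per group), a ratio of 1.06 with a 95% interval from 0.802 to 1.39. Gemin8 was the scarcest partner, with 98, 85 and 73 counts in HFD libraries 1, 2 and 3, against 125, 80 and 61 in the HTG group. Its ratio of 0.997 was the least precise, with a 95% interval from 0.541 to 1.84. The adjusted p-values of Gemin5, Gemin6, Gemin7 and Gemin8 lay between 0.812 and 0.996 (edgeR).

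Strap was the one partner whose groups did not overlap. Strap encodes Unrip, a WD-repeat protein that also serves outside the SMN complex, in translation and in TGF-beta signalling. It had 80.7, 101 and 66.0 CPM in HFD libraries 1, 2 and 3. In HTG libraries 1, 2 and 3 it had 63.3, 44.3 and 49.3 CPM. The highest HTG library thus came close to the lowest HFD library. The log2 fold change was -0.66 (standard error 0.22), a ratio of 0.635 with a 95% interval from 0.447 to 0.900. Its unadjusted p was 0.0169 and its adjusted p was 0.119 (edgeR), and over the alternative fits the adjusted p ran from 0.0623 to 0.329. Groups that did not overlap in this direction were found in 15.5% of the genes tested, and in either direction in 32.1%. The lowest bound among the partners' intervals was this 0.447 of Strap. For Gemin4, chosen on this same contrast and given as a description only, the lowest HFD library was 26.6-fold above the highest HTG limit. An interval bound and a ratio to a counting limit differ in kind, so the difference between Strap and Gemin4 was not tested.

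**Figure D4:**
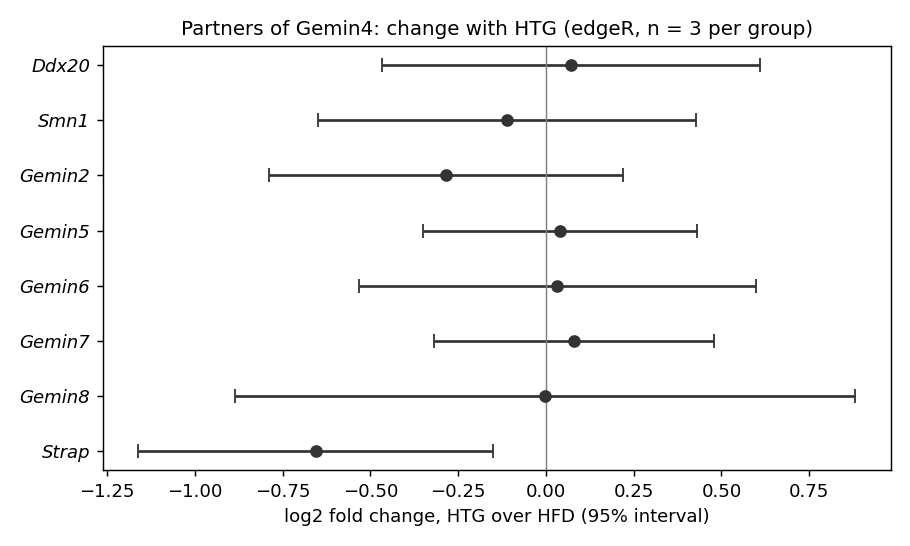
Log2 fold change of the 8 partners of Gemin4 in the HTG group over the HFD group (points), with 95% intervals from edgeR's quasi-likelihood fit (bars, n = 3 per group). The intervals of 7 partners include 0, and that of Strap runs from -1.16 to -0.15.

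Summed over the 8 partners, the level was 49.5 ± 6.18 FPKM in the HFD group and 38.6 ± 3.81 FPKM in the HTG group (SD, n = 3 per group), and HTG library 1, at 42.9 FPKM, lay just above HFD library 3, at 42.7 FPKM. Strap was the largest part of this sum in the HFD group. Without it, the other 7 partners summed to 23.9 ± 2.08 FPKM in the HFD group and 22.7 ± 0.983 FPKM in the HTG group (SD, n = 3 per group), and the groups overlapped.

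Among the 18454 other genes tested, the pattern of Gemin4 over the 6 libraries was compared by Pearson's correlation of log2 CPM, as a description. The 5 most alike were Gm8116 (r = 0.996), Cpeb3 (r = 0.995), Kidins220 (r = 0.989), Usp22 (r = 0.989) and Jun (r = 0.989). A correlation takes the shape and not the size of a pattern. Cpeb3, which binds mRNA, had 7.95 ± 0.190 CPM in the HFD group and 6.22 ± 0.268 in the HTG group (SD, n = 3 per group). Jun, a subunit of the AP-1 transcription factor, had 48.8 ± 4.48 and 25.4 ± 4.23 CPM (SD, n = 3 per group). Strap ranked 2251 with r = 0.738 and Gemin2 ranked 5427 with r = 0.444. The other 6 partners had r between -0.27 and 0.20. Within the HFD group, where Gemin4 could be measured, Gemin5, Smn1 and Ddx20 had the same order of libraries in CPM as Gemin4 (library 2 highest, library 1 lowest), and the other 5 partners did not, which with 3 libraries is a description only. All these values rest on the same 2 groups of 3 libraries. Since Gemin4 was near 0 in every HTG library, each r over the 6 libraries largely restates that gene's difference between the groups.

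The wider pathway was described by 7 lists with 57 genes, all of which were tested. At an unadjusted p under 0.05, 7 of these genes were lower and 11 were higher in the HTG group, where 12.4% of all genes tested were lower and 12.3% higher, or 24.7% in all. At an adjusted p under 0.05 there were 0 in edgeR, where 0.0108% of all genes tested passed. At an adjusted p under 0.1 there were 2 lower and 8 higher, where 5.43% and 5.41% of all genes tested were lower and higher, or 10.8% in all. In the fit blocked by replicate number, and on removing any 1 of HFD library 2, HFD library 3, HTG library 2 and HTG library 3, 0 of the 57 genes were left at an adjusted p under 0.1. On removing HFD library 1, 0 lower and 1 higher were left. At an unadjusted p under 0.05, these fits also called fewer of all genes tested. The share in either direction was 24.7% with all libraries and no block, and 21.0% with the block. Without HFD library 1, 2 or 3 it was 22.3%, 20.3% or 20.5%. Without HTG library 2 or 3 it was 16.2% or 17.9%. No share of all genes at an adjusted p under 0.1 is given for these fits.

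The Sm core proteins, which the SMN complex assembles into rings, were mostly higher. Of 8 genes, 5 were higher and 1 was lower at an unadjusted p under 0.05, and likewise at an adjusted p under 0.1 (edgeR), and the median log2 fold change was 0.65. Over all genes tested, 12.3% were higher and 12.4% lower at the first threshold, and 5.41% and 5.43% at the second. Snrpd2, which encodes SmD2, had 11.1 ± 1.80 CPM in the HFD group and 22.0 ± 1.82 in the HTG group (SD, n = 3 per group), with a log2 fold change of 0.98 (adjusted p = 0.0559, edgeR). Snrpd1, for SmD1, had 10.2 ± 1.54 and 16.8 ± 1.15 CPM, and Snrpd3, for SmD3, had 25.8 ± 2.68 and 38.5 ± 1.35 CPM (SD, n = 3 per group). Groups did not overlap in any of these 3 genes, as was the case in the higher direction for 16.5% of all genes tested. The remaining genes past the threshold, named after their values were seen, were Snrpf, Snrpg and Snrpb. Snrpf had 3.24, 2.59 and 5.40 CPM in HFD libraries 1, 2 and 3, against 6.11, 10.2 and 8.18 CPM in the HTG group, and these did not overlap. Snrpg had 1.51, 0.720 and 0.626 CPM in HFD libraries 1, 2 and 3, against 4.80, 5.97 and 1.39 CPM in the HTG group, so that HTG library 3 lay within the HFD range. Snrpb, for SmB, went the other way, from 41.6 ± 9.06 to 18.4 ± 7.81 CPM (SD, n = 3 per group; adjusted p = 0.0794, edgeR). Snrpn, for the related SmN and also named after its values were seen, had a log2 fold change of -0.41 with overlapping groups (adjusted p = 0.450, edgeR). Small Sm genes have processed copies elsewhere in the genome that can share their reads, so their counts are uncertain. The counts at an unadjusted p under 0.05 stayed at 5 or 6 higher and 1 or 2 lower in all 15 alternative fits. Those at an adjusted p under 0.1 did not. They fell to 0 with the replicate block, and without HFD library 2, HFD library 3, HTG library 2 or HTG library 3. Without HFD library 1 they fell to 0 lower and 1 higher. These fits also called fewer of all genes tested at an unadjusted p under 0.05 (16.2% to 22.3% in either direction, against 24.7%).

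The list of genes around Sm methylation and PRMT5 had a median log2 fold change of -0.27 over 6 genes. Clns1a, which encodes pICln, the chaperone that hands Sm proteins to the SMN complex, had 25.9 ± 3.32 CPM in the HFD group and 15.2 ± 3.14 in the HTG group (SD, n = 3 per group), with a log2 fold change of -0.77 (adjusted p = 0.0718, edgeR). Riok1, a kinase of the PRMT5 complex, was the only one higher at an unadjusted p under 0.05, at 7.28 ± 0.611 and 10.4 ± 1.31 CPM (SD, n = 3 per group; adjusted p = 0.156, edgeR). At that threshold 12.3% of all genes tested were higher. In DESeq2, in limma on FPKM, and with HFD library 1, HTG library 2 or HTG library 3 removed, 0 of the 6 were higher. In either direction, 16.6% of all genes tested were called in DESeq2 and 32.1% in limma. With those libraries removed it was 22.3%, 16.2% and 17.9%, against 24.7% with all libraries in edgeR. Wdr77, a subunit of the same complex, had 27.8 ± 7.31 and 20.1 ± 1.27 CPM (SD, n = 3 per group; adjusted p = 0.215, edgeR).

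Among the proteins specific to single snRNPs, 2 of 5 were higher at an unadjusted p under 0.05 and 0 were lower. Over all genes tested, 12.3% were higher and 12.4% lower at that threshold. Snrnp70 had 140.3 ± 2.46 CPM in the HFD group and 222.8 ± 30.9 in the HTG group, and Snrpa had 28.2 ± 3.78 and 41.6 ± 6.08 CPM (SD, n = 3 per group). Both encode proteins of the same particle, the one that recognises the start of an intron. Their adjusted p-values were 0.0839 and 0.112 (edgeR), and 1 of the 2 calls was left with HTG library 3 removed. In that fit 17.9% of all genes tested were called in either direction, against 24.7% with all libraries. Snrpc, the third protein of that particle, had 15.2 ± 0.842 and 13.4 ± 1.37 CPM (adjusted p = 0.505, edgeR). Of the 10 LSm genes, whose products form Sm-like rings, 2 were higher and 0 lower. Lsm7 had 5.73 ± 0.974 CPM in the HFD group and 14.2 ± 3.05 in the HTG group (SD, n = 3 per group; adjusted p = 0.0542, edgeR). Lsm6 had 22.5 ± 1.83 and 35.5 ± 3.49 CPM (SD, n = 3 per group; adjusted p = 0.0641, edgeR), and Lsm3 had 4.07 ± 1.05 and 5.83 ± 0.255 CPM (adjusted p = 0.253, edgeR).

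Genes for snRNA export, cap modification and import had a median log2 fold change of 0.03 over 7 genes, and 1 was lower at an unadjusted p under 0.05. This was Kpnb1, the import receptor importin beta, with 103 ± 28.8 CPM in the HFD group and 68.7 ± 10.8 in the HTG group (SD, n = 3 per group; adjusted p = 0.179, edgeR), and its groups overlapped. With HFD library 2, HFD library 3 or HTG library 2 removed, 0 of the 7 were lower. In those fits 20.3%, 20.5% and 16.2% of all genes tested were called in either direction, against 24.7% with all libraries. At the same threshold 12.4% of all genes tested were lower. Ncbp1 and Ncbp2, the subunits of the nuclear cap-binding complex, had adjusted p-values of 0.242 and 0.500 (edgeR). Of 7 genes of the Cajal body, where snRNPs mature, 1 was lower, namely Dkc1, the pseudouridine synthase dyskerin. It had 9.79 ± 0.971 and 5.50 ± 2.09 CPM (SD, n = 3 per group; adjusted p = 0.146, edgeR). With HTG library 3 removed 0 of the 7 were lower, in a fit that called 17.9% of all genes tested in either direction. Fbl (fibrillarin) and Nolc1 had adjusted p-values of 0.268 and 0.414 (edgeR).

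The genes of microRNA processing and silencing, included because Gemin4 and Ddx20 have been found with Argonaute proteins, gave 3 of 14 lower and 1 of 14 higher at an unadjusted p under 0.05. Among all genes tested, 12.4% were lower and 12.3% higher at that threshold. Ago2, the Argonaute protein that cuts its target, had 15.1, 24.8 and 23.8 CPM in HFD libraries 1, 2 and 3 and 12.2, 9.45 and 15.3 CPM in HTG libraries 1, 2 and 3, so that HTG library 3 lay just above HFD library 1. Its log2 fold change was -0.79 (adjusted p = 0.109, edgeR). Ago1, also lower and named after its values were seen, had 23.2 ± 1.48 and 18.2 ± 1.21 CPM (SD, n = 3 per group; adjusted p = 0.196, edgeR). Prkra, a partner of Dicer, had 9.94 ± 1.64 and 6.42 ± 0.576 CPM (SD, n = 3 per group; adjusted p = 0.117, edgeR), and Tnrc6a, which joins Argonaute to the silencing machinery, had 58.8 ± 9.75 and 96.7 ± 26.6 CPM (SD, n = 3 per group; adjusted p = 0.123, edgeR). Without HTG library 2, 0 of the 14 genes were lower and 0 were higher at an unadjusted p under 0.05. Without HFD library 1 there was 1 lower, and 0 were higher without HFD library 2 or without HTG library 3. In the same order, these fits called 16.2%, 22.3%, 20.3% and 17.9% of all genes tested in either direction, against 24.7% with all libraries. Over the 14 genes the median log2 fold change was -0.14.

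**Figure D5:**
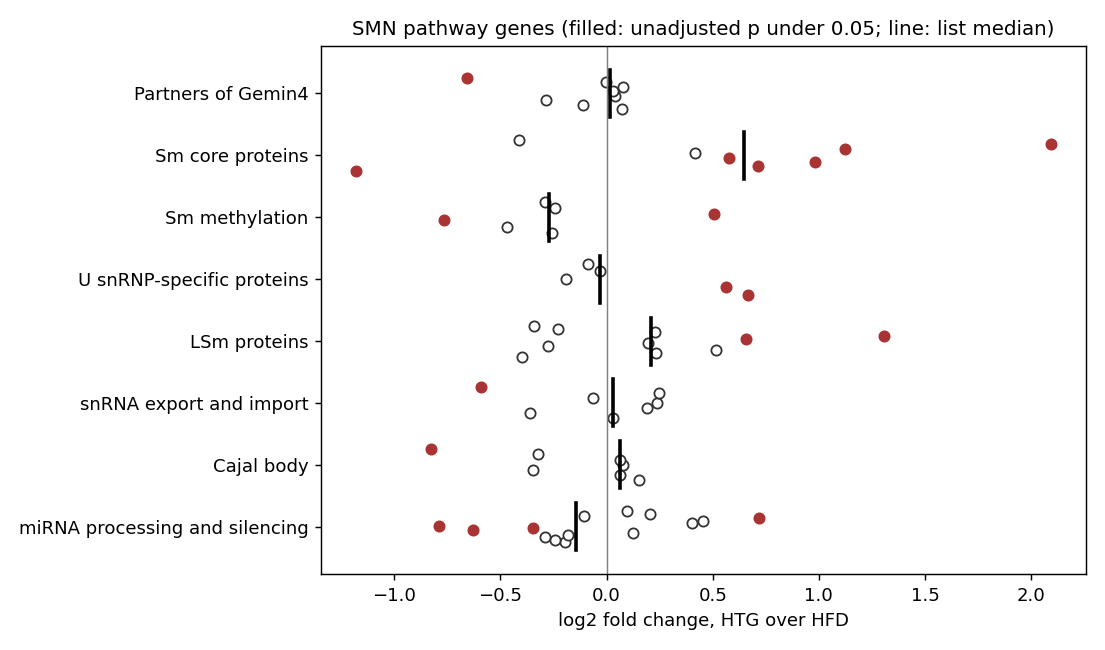
Log2 fold change in the HTG group over the HFD group for each gene (points) of the partners of Gemin4 and of 7 lists around snRNP assembly, with filled points for an unadjusted p under 0.05 (edgeR, n = 3 per group) and a line at each list's median. The Sm core stands to the right with a median of 0.65, apart from Snrpb and Snrpn on the left, while 7 of the 8 partners lie near 0.

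The libraries held 50648778 to 90563477 estimated counts, or 12662194 to 22640869 fragments if each gave 4 counts, with the lowest in HTG library 3 and the highest in HTG library 2. The most alike pair of libraries, HFD library 1 and HTG library 1, came from different groups and had a correlation of 0.959 in log2 CPM over genes. In bulk liver, fewer cells of a type and less RNA per cell cannot be told apart. The 7 hepatocyte markers in the table summed to 84857 to 97314 CPM in the HFD libraries and to 71198 to 75099 CPM in the HTG libraries, with 2 of them lower at an unadjusted p under 0.05. The 5 macrophage markers summed to 521 to 976 CPM in the HFD libraries and 367 to 642 in the HTG libraries, with 2 lower. The 5 endothelial markers (46.4 to 93.2 and 66.1 to 101 CPM), the 5 stellate cell markers (33.7 to 87.5 and 50.4 to 59.3 CPM), the 4 lymphocyte markers (2.80 to 5.45 and 3.76 to 4.59 CPM), the 4 red cell markers (202 to 360 and 208 to 366 CPM) and the 3 pancreas markers in the table (4.57 to 5.83 and 5.38 to 8.20 CPM) overlapped between the groups, and the 4 bile duct markers did not (8.41 to 10.2 and 10.7 to 10.9 CPM). The hepatocyte sums did not overlap either. At an unadjusted p under 0.05, 1 bile duct marker was lower and 1 higher, 1 stellate cell marker was higher and 1 red cell marker was lower. Over all genes tested, 12.4% were lower and 12.3% higher at that threshold. Prss2, an exocrine pancreas marker, was at or below 12 counts in every library. The part of these markers in the results was not tested.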

How the data were processed

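The table deposited by the authors gives, for each gene in each library, an estimated count that was not scaled between libraries. It also gives the authors' FPKM, which the authors scaled by transcript length and library size. The submitters' processing notes name HISAT2, StringTie, SAMtools and the rat build mRatBN7.2 without roles or versions, while the deposited rows are mouse Ensembl genes. Filters and the use of strand in counting are not given in the sources used here. The labels name a NEBNext Ultra kit and the paper's methods a dUTP protocol. Counts were compared with edgeR 4.0.16 in R 4.3.3 (TMM, filterByExpr, glmQLFit and glmQLFTest, group as the only term, 18455 of 32930 rows tested), with Benjamini-Hochberg adjustment over all genes tested. Intervals are from the same fit. Members and lists were chosen with earlier results of these data known. Named genes were the members, the rows overlapping Gemin4, the 3 smallest p-values of each list and of the rows within 100 kb, and the 5 genes most correlated with Gemin4. Each member symbol had 1 row. Of the markers, Tf and Cpa1 matched no row and were not used. Nothing pairs the animals or names batches, so a batch that went with the groups could not be told from the treatment. The p-values set the difference between the groups against the spread between these libraries, estimated partly across genes. Alternatives were DESeq2 1.42.0, other scalings and filters, a replicate block, each library left out, counts divided by 4, and limma 3.58.1 on log2(FPKM + 0.1) and log2(FPKM + 1) at a mean FPKM of at least 1. Lower levels for counting a gene as present were added after the data were seen. Scripts were tested on simulated data. Sequences were not printed, since those at hand are of rat and the rows are mouse genes.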

Additional observations from a re-analysis of the deposited data

How the results depend on the processing

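Over the 8 alternatives the mean Gemin4 level in the HFD group ran from 8.22 to 10.1 CPM, against 9.04 CPM. With FPKM, or with Gemin4 and Glod4 summed, all 3 HTG libraries lay below the lowest HFD library. Gemin4 was chosen on this same contrast, so these values are a description and not a test. Leaving out each of the 6 libraries in turn, the number of partners lower at an unadjusted p under 0.05 lay between 0 and 1, since Strap kept its direction (-0.86 to -0.49) and lost the threshold when HFD library 2 (-0.49), HTG library 2 (-0.55) or HTG library 3 (-0.60) was removed. The number of list genes lower lay between 3, without HTG library 2, and 8. In these fits the share of all genes tested at an unadjusted p under 0.05, in either direction, ran from 16.2% to 25.7%. Partners near a log2 fold change of 0 changed sign without passing the threshold: Gemin5 (-0.056 to 0.10), Gemin6 (-0.079 to 0.13), Gemin7 (-0.020 to 0.16), Gemin8 (-0.28 to 0.23), Smn1 (-0.25 to 0.069) and Ddx20 (-0.11 to 0.25) when a library was left out, Gemin6 with limma on FPKM (-0.014 and -0.012), and Gemin8 with upper-quartile scaling (0.026), a minimum of 10 counts (0.0036) or counts divided by 4 (0.011). Same-numbered libraries did not deviate together (correlations of -0.078, -0.073 and 0.10), so the numbers were not read as pairs. With a replicate block 1 partner was lower, Strap, and 0 were higher, as without it, and over all genes 0 instead of 2 had an adjusted p under 0.05. The lower and higher calls over all genes at that threshold, 1 and 1 in edgeR, were 1160 and 929 in DESeq2, 76 and 86 without a filter, 315 and 369 at a minimum of 10 counts, 363 and 459 with counts divided by 4, 552 and 326 on log2(FPKM + 0.1), 555 and 329 on log2(FPKM + 1), 419 and 234 without HTG library 1, and at most 3 and 4 without any other library (0 and 0 on removing either HTG library 2 or 3, or HFD library 3), with 0 partners in each. HTG library 3 had the fewest counts, and Gemin8, with 61 counts there, had the widest interval. The cause of these shifts was not tested.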
